A study of Mus musculus with 13 samples.

Results

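The CCR4-NOT deadenylase and its oocyte adaptor BTG4 were followed through 10 genes, Btg4, Cnot1, Cnot2, Cnot3, Cnot6, Cnot6l, Cnot7, Cnot8, Cnot10 and Cnot11. They were chosen by gene symbol, and all 10 were found among the 18939 genes of the count tables and the 49686 genes of the FPKM table. Their mRNA was measured by RNA-seq in 13 mouse oocytes, each sequenced alone: 3 SN and 3 NSN oocytes held at GV, 4 that began as SN and were matured to MII (SN-MII), and 3 that began as NSN and were matured likewise (NSN-MII). GV oocytes are arrested in prophase with an intact germinal vesicle, and MII oocytes have completed the first meiotic division. In SN (surrounded nucleolus) oocytes condensed chromatin rings the nucleolus, and in NSN (non-surrounded nucleolus) oocytes it does not. All groups shared the same source, and the same handling up to the sorting into SN and NSN. The females were C57BL/6 mice 3 to 4 weeks old, primed for 48 h with PMSG. Oocytes were injected with FBL-GFP mRNA (and H2B-mCherry mRNA, per the methods), kept in 10 µM Cilostamide, which blocks meiotic resumption, and sorted into SN and NSN by their GFP pattern after 6 h. The MII groups were then released and matured in culture, so each MII library is a different oocyte from any GV library, and no uninjected oocyte was among the libraries.

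CCR4-NOT shortens the poly(A) tails of mRNAs, the step that starts most cytoplasmic mRNA decay. Its scaffold CNOT1 holds a catalytic module with 2 kinds of nuclease, a DEDD-type enzyme (CNOT7 or CNOT8) and an EEP-type enzyme (CNOT6 or CNOT6L), a NOT module with CNOT2 and CNOT3, and a module at its N-terminal end with CNOT10 and CNOT11. BTG4 belongs to the BTG/TOB family, which binds CNOT7 and CNOT8. In oocytes BTG4 links the deadenylase to translation factors and is required for clearing maternal mRNA after meiotic resumption. NSN oocytes still transcribe, SN oocytes have largely stopped, and during maturation mRNA levels change mainly through tail length and decay. The libraries were made with SMART-seq2, in which reverse transcription starts on poly(A) tails, so each value below is a level of tailed mRNA. No spike-in is named in the sources used here, and levels are shares of a library.

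Total counts per library were between 7140416 and 8846287, and 11579 to 13333 genes had a count. Of 15 oocyte marker genes, 14 had an FPKM of at least 1 in every library, with a summed level of 9921 to 15928 FPKM. The 15 granulosa and cumulus markers summed to 28.3 to 38.1 FPKM in GV and 39.8 to 65.1 FPKM in MII oocytes, most of it Cyp19a1 (at most 53.1 FPKM). Of these 15, 13 were above 0 in at least 1 GV oocyte and 13 in at least 1 MII oocyte. An FPKM of at least 1 in every library of the stage was reached by 2 at GV and 3 at MII. Only Foxl2 was at 0 in all libraries. Their part in the results was not tested. Nothing in the sources says whether the oocytes of a group came from separate females, so p-values measure the spread between these oocytes.

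The 3′ ends of the mRNAs are shown because they carry the signals for tail lengthening in the oocyte, and because the libraries start at the tail. The cytoplasmic polyadenylation element (CPE), bound by CPEB1, was searched for as TTTTAT or TTTTAAT, and the polyadenylation hexamer as AATAAA or ATTAAA, on the mRNA strand in the last 100 bases of the principal transcripts of GENCODE M21 (GRCm38, the same assembly as mm10). Btg4, Cnot1, Cnot3, Cnot7 and Cnot8 held a CPE match in at least 1 principal transcript, 5 of 10 genes against 17.8% of 21844 genes searched in the same way. A hexamer was present in 7 of 10 genes (75.5% of all genes), and both in a single transcript end in Btg4, Cnot3, Cnot7 and Cnot8, 4 of 10 genes (13.8% of all). Cnot10 and Cnot6 had neither in their annotated last 100 bases. Windows of 30 bases are printed 5′ to 3′ on the mRNA strand, in DNA letters, all from the last 100 bases of the 3′ untranslated end, with the matches in capitals. The Btg4 windows lie at chr9:51119797-51119826 and chr9:51119484-51119513 (plus strand, 2 alternative ends), that of Cnot7 at chr8:40493036-40493065 (minus strand), that of Cnot8 at chr11:58118552-58118581 (plus strand), that of Cnot3 at chr7:3661074-3661103 (plus strand) and that of Cnot1 at chr8:95719504-95719533 (minus strand). In Cnot7, Cnot8 and Cnot3 the CPE and the hexamer fell in the same window. For Cnot7 this holds for the end of Cnot7-211, while Cnot7-201 and Cnot7-203 had a hexamer and no CPE match. In Cnot3 the CPE match came after the hexamer, at 19 and 28 bases from the end.
Btg4-201: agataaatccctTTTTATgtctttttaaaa
Btg4-203: aaaaTTTTATgaacactagtgaatataggt
Cnot7-211: ttaaggtacaTTTTATatcAATAAAaatac
Cnot8-201: tatgtTTTTAATtttgtaaAATAAAgattg
Cnot3-201: tatttatgAATAAAtagTTTTATatgacgg
Cnot1-203: aagatgtattgaTTTTATatatgtgagtac
A match to these letters is a description of the sequence and not a measured site. Of the 5 genes with a CPE match, Btg4, Cnot7 and Cnot8 were higher at MII, Cnot1 was lower and Cnot3 was not called, as given below. Cnot6 and Cnot6l, which were also higher at MII, had no match in these windows.

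From GV to MII some mRNAs of the complex rose, some fell and others did not pass the test. Btg4 and all 4 catalytic subunits rose, by 2.45-fold to 3.42-fold. Cnot10 fell 12.8-fold and Cnot1 fell 2.63-fold. Cnot2, Cnot3 and Cnot11 did not pass the test. Of the 10 genes, 7 were called at an adjusted p under 0.05 (quasi-likelihood F test of edgeR, Benjamini-Hochberg adjusted over 11375 genes), against 68.6% of all genes tested, so the number called is close to the background. The 5 called higher stand beside 31.7% of all genes and the 2 called lower beside 36.9%. The oocytes of both stages did not overlap in CPM (counts scaled to a common library total with TMM factors) for 5 genes that were higher and 1 that was lower at MII, beside 20.9% and 26.5% of all genes. The median log2 fold change was 0.81 over the 10 genes and -0.10 over all genes tested, and the median size was 1.33 and 1.14. When libraries were scaled by their totals alone, the median of all genes moved to -0.39. The 7 calls kept their direction under that scaling, and Cnot2 became the 8th, at -0.40 (adjusted p = 0.0106), a value next to the shifted median. The TMM factors were 1.06 to 1.26 in GV and 0.799 to 1.01 in MII libraries. Over 7 alternative settings the log2 rises were as low as 0.99 (Btg4), 0.99 (Cnot6), 1.04 (Cnot6l), 1.08 (Cnot8) and 1.47 (Cnot7). The falls lay between -1.66 and -1.40 (Cnot1) and between -3.98 and -3.04 (Cnot10).

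**Figure D1:**
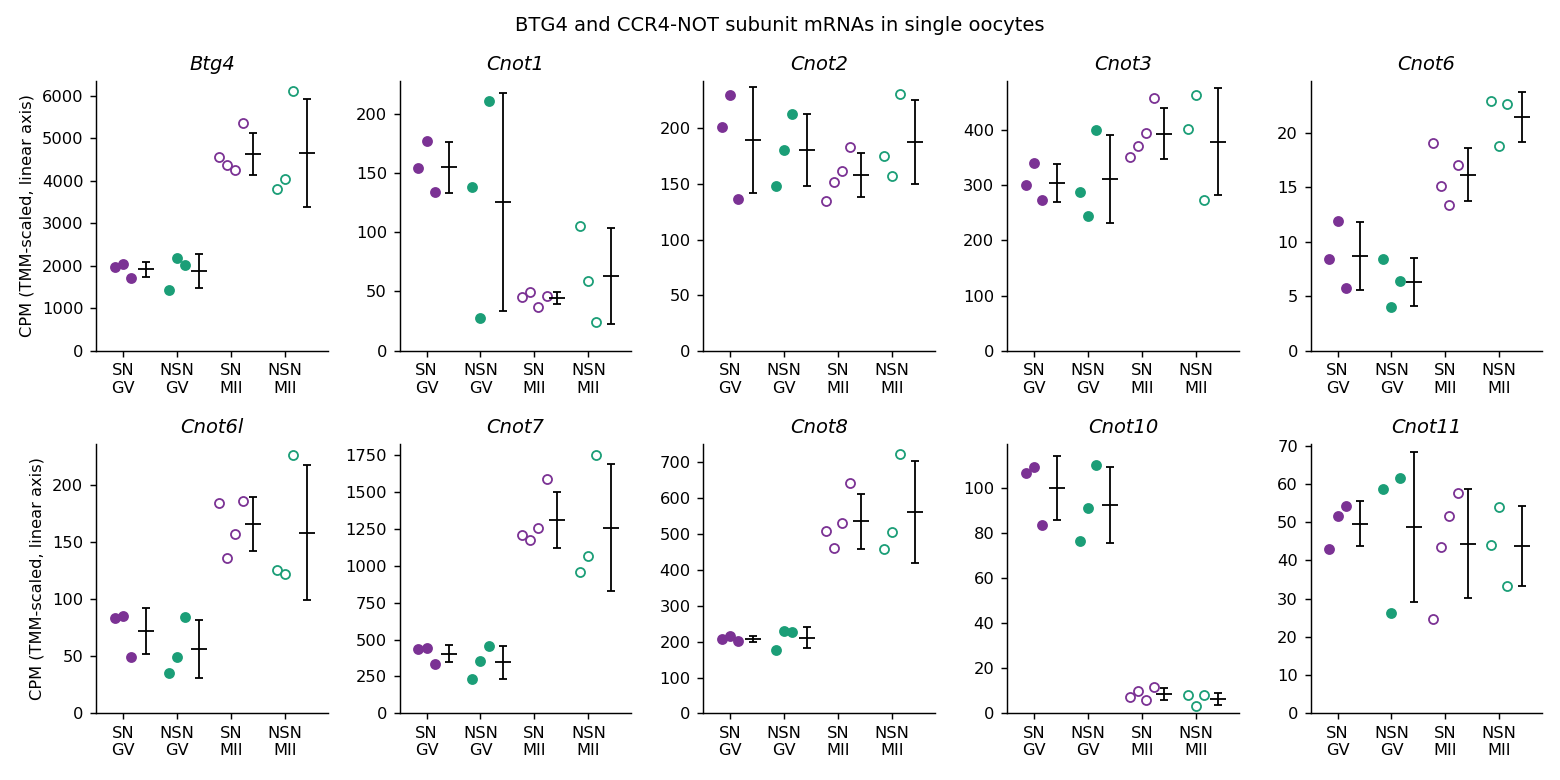
Level of each mRNA in every oocyte in CPM on a linear axis from 0, by group (3 SN GV, 3 NSN GV, 4 SN-MII and 3 NSN-MII oocytes). Each point is 1 oocyte (filled, GV; open, MII; purple, SN; green, NSN), and the bar beside it is the mean ± SD. Btg4, Cnot6, Cnot6l, Cnot7 and Cnot8 were higher and Cnot10 was lower in all MII oocytes than in all GV oocytes, while the ranges of the other 4 genes overlapped.

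Btg4 (chr9:51060901-51119875, plus strand), the adaptor, was the most abundant of the 10 mRNAs. It was at 1973, 2047 and 1710 CPM in the SN GV oocytes and at 1422, 2182 and 2019.9 CPM in the NSN GV oocytes. In the SN-MII oocytes it was at 4548, 4359, 4247 and 5346 CPM, and in the NSN-MII oocytes at 3804, 4044 and 6108 CPM. Every MII oocyte was above every GV oocyte, and the SN and NSN oocytes overlapped at both stages. At GV its mean was 1892 ± 278 CPM (SD, n = 6), and at MII it was 4637 ± 811 CPM (SD, n = 7). The log2 fold change was 1.29 ± 0.15 (SE), an adjusted p of 1.07e-06 in edgeR's test. Per length, Btg4 ranked between 47 and 58 among all genes of the FPKM table in GV oocytes and between 12 and 17 in MII oocytes. It took 0.179% to 0.237% of all counts of a GV library and 0.383% to 0.488% of those of an MII library.

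The DEDD-type nucleases, which bind BTG4, rose beside it. Cnot7 (chr8:40492540-40515847, minus strand) was at 437, 439.7 and 337 CPM in SN GV and at 231, 355 and 454 CPM in NSN GV oocytes. At MII it was at 1209, 1173, 1258 and 1587 CPM in SN-MII and at 954, 1065 and 1749 CPM in NSN-MII oocytes. The lowest MII oocyte was above the highest GV oocyte. Its log2 fold change of 1.77 ± 0.19 (SE, adjusted p = 3.71e-07 in edgeR's test) was higher than that of 97.5% of all genes tested. Cnot8 (chr11:58104153-58118594, plus strand) was at 207, 216 and 200.4 CPM in SN GV oocytes and at 178, 229 and 226 CPM in NSN GV oocytes. It reached 507, 462, 531 and 642 CPM in SN-MII and 458, 504 and 724 CPM in NSN-MII oocytes. The groups of both stages did not overlap, and the log2 fold change was 1.39 ± 0.15 (SE, adjusted p = 3.57e-07 in edgeR's test). Cnot8 had the smallest coefficient of biological variation of the 10 genes in the fit of all libraries, 0.195, with Btg4 at 0.204. The median over all genes tested was 0.326. Within the NSN-MII oocytes the SD of its log2 level, 0.35, was above that of Cnot6 (0.15) and Cnot2 (0.28).

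The EEP-type nucleases were less abundant and rose as well. Cnot6l (chr5:96070333-96164171, minus strand) was at 83.3, 85.0 and 49.4 CPM in SN GV and at 35.7, 49.4 and 84.5 CPM in NSN GV oocytes. It was at 184, 137, 157 and 186 CPM in SN-MII and at 126, 123 and 227 CPM in NSN-MII oocytes, all above the GV oocytes. The log2 fold change was 1.34 ± 0.22 (SE, adjusted p = 5.36e-05 in edgeR's test). Cnot6 (chr11:49671503-49712723, minus strand) was the rarest of the 10 at GV, at 8.41, 11.9 and 5.74 CPM in SN GV and at 8.40, 3.99 and 6.44 CPM in NSN GV oocytes. It was at 19.1, 15.1, 13.4 and 17.0 CPM in SN-MII and at 23.0, 18.8 and 22.6 CPM in NSN-MII oocytes. The stages did not overlap, and the log2 fold change was 1.33 ± 0.25 (SE, adjusted p = 0.000159 in edgeR's test). These values rest on 32 to 193 counts of Cnot6 per library.

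Within each pair of alternative nucleases the more abundant member was the same in every oocyte. Cnot7 made up 71.2% ± 3.59 (SD, n = 6) of the summed FPKM of Cnot7 and Cnot8 at GV and 76.6% ± 1.86 (SD, n = 7) at MII. The ranges, 67.0% to 76.1% and 74.0% to 78.3%, overlapped. Cnot6l made up 88.0% ± 3.48 (SD, n = 6) of the sum of Cnot6l and Cnot6 at GV and 87.9% ± 3.44 (SD, n = 7) at MII. Among MII oocytes this share was 88.6% to 91.7% in SN-MII and 82.3% to 88.2% in NSN-MII oocytes, ranges that did not overlap. In CPM they did overlap, at 90.0% to 92.1% and 84.6% to 90.9%. This difference was noticed after the values were seen and was not tested. The longest run of identical bases between the transcripts of Cnot7 and Cnot8, and between those of Cnot6 and Cnot6l, was 20 bases.

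**Figure D2:**
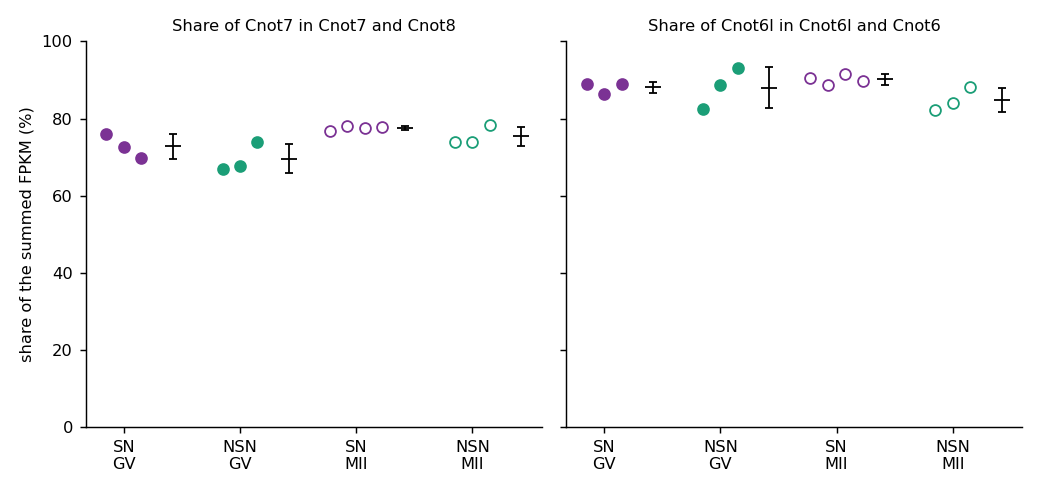
Share of the more abundant nuclease in each pair of alternative nucleases, in percent of the summed FPKM of the pair, per oocyte (points; filled, GV; open, MII) with the mean ± SD of each group beside it. Cnot7 held between 67.0% and 78.3% of its pair in all 13 oocytes, and Cnot6l held between 82.3% and 93.0% of its pair.

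The scaffold moved the other way. Cnot1 (chr8:95719451-95807464, minus strand) was at 154, 177 and 134 CPM in SN GV oocytes and at 138, 27.95 and 211 CPM in NSN GV oocytes. It was at 45.6, 49.2, 36.9 and 46.6 CPM in SN-MII and at 106, 58.8 and 24.5 CPM in NSN-MII oocytes. All SN-MII oocytes were below all SN GV oocytes, as for 34.5% of all genes tested. The NSN GV and NSN-MII oocytes overlapped through NSN GV oocyte 2. The log2 fold change was -1.40 ± 0.36 (SE, adjusted p = 0.00237 in edgeR's test), and it lay between -1.72 and -1.09 with any single library left out. Cnot1 had the largest coefficient of biological variation of the 10 genes, 0.440, above that of 69.2% of all genes tested. The SD of its log2 level was 0.20 in SN GV and 0.18 in SN-MII oocytes, and 1.51 in NSN GV and 1.04 in NSN-MII oocytes. Its estimated counts were not whole numbers in 10 of 13 libraries, so some of its reads were shared out between genes, and the count per unit of FPKM varied 2.40-fold between libraries, so that its FPKM depends on the transcript lengths RSEM assigned. Counts were also not whole for Cnot3 in 13 of 13 libraries, for Cnot8 in 3 and for Cnot7 in 1.

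Neither subunit of the NOT module passed the test. Cnot2 (chr10:116485161-116581511, minus strand) was at 201, 230.4 and 137 CPM in SN GV and at 148, 180.5 and 213 CPM in NSN GV oocytes. It was at 135, 152, 162 and 183 CPM in SN-MII and at 175, 157 and 231 CPM in NSN-MII oocytes, and the stages overlapped. The log2 difference of -0.10 did not pass the test (adjusted p = 0.58 in edgeR's test), with a fold change between 0.736 and 1.18 at 95% confidence. Cnot3 (chr7:3645268-3661109, plus strand) was at 300.2, 341 and 272 CPM in SN GV oocytes and at 287, 245 and 399 CPM in NSN GV oocytes. It was at 351, 371, 394 and 458 CPM in SN-MII and at 401, 463 and 273 CPM in NSN-MII oocytes. Of the 7 MII oocytes, 4 lay within the GV range of Cnot3 and 3 lay above it, and NSN-MII oocyte 3 was the lowest. The log2 difference was 0.33 (adjusted p = 0.0743 in edgeR's test), and it passed without that oocyte, at 0.41 (adjusted p = 0.0159), or without NSN GV oocyte 3, at 0.45 (adjusted p = 0.0184). These were 2 of 13 fits with a library left out, in which the value lay between 0.25 and 0.45. Across 7 alternative settings Cnot3 was called in 0, and its value lay between 0.049 and 0.33. Both NOT module mRNAs thus had intervals that reach no further than a fold change of 1.58.

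Of the N-terminal module, Cnot10 was called and Cnot11 was not. Cnot10 (chr9:114585878-114640184, minus strand) was at 107, 109 and 83.5 CPM in SN GV oocytes and at 76.5, 91.1 and 110.0 CPM in NSN GV oocytes. It was at 7.43, 10.01, 5.78 and 11.7 CPM in SN-MII and at 7.97, 3.21 and 8.10 CPM in NSN-MII oocytes. No MII oocyte came near the GV range, and 26 to 86 counts remained per MII library. The log2 fold change was -3.68 ± 0.24 (SE, adjusted p = 1.15e-09 in edgeR's test), lower than in all but 7.01% of the genes tested. Its partner Cnot11 (chr1:39534992-39546889, plus strand) was at 43.1, 51.7 and 54.1 CPM in SN GV and at 58.6, 26.2 and 61.4 CPM in NSN GV oocytes. It was at 24.8, 43.4, 51.6 and 57.6 CPM in SN-MII and at 44.1, 54.0 and 33.2 CPM in NSN-MII oocytes. The stages overlapped, and the log2 difference of -0.16 did not pass the test (adjusted p = 0.564 in edgeR's test, fold change between 0.637 and 1.26 at 95% confidence).

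What remained of Cnot10 at MII was also counted over a shorter length. The count of a gene divided by its FPKM follows the transcript length that RSEM assigned to it, and it was expressed relative to the median gene of the same library. For Cnot10 this relative length was 1.01 to 1.12 in the 6 GV oocytes and 0.682 to 0.776 in the 7 MII oocytes, and the ranges did not overlap. The ratio of the means was 0.688. Over the 5324 genes with at least 50 counts in every library the median ratio was 0.989, and 4.47% had MII values wholly below their GV values. Cnot10, with 26 to 86 counts at MII, and Cnot6 did not reach that minimum in every library. The other 9 genes overlapped between the stages, with ratios between 0.902 (Cnot2) and 1.08 (Cnot1). The FPKM of Cnot10 fell from 36.7 ± 3.66 (SD, n = 6) to 3.84 ± 1.35 (SD, n = 7). Which transcripts of Cnot10 were present was not measured.

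**Figure D3:**
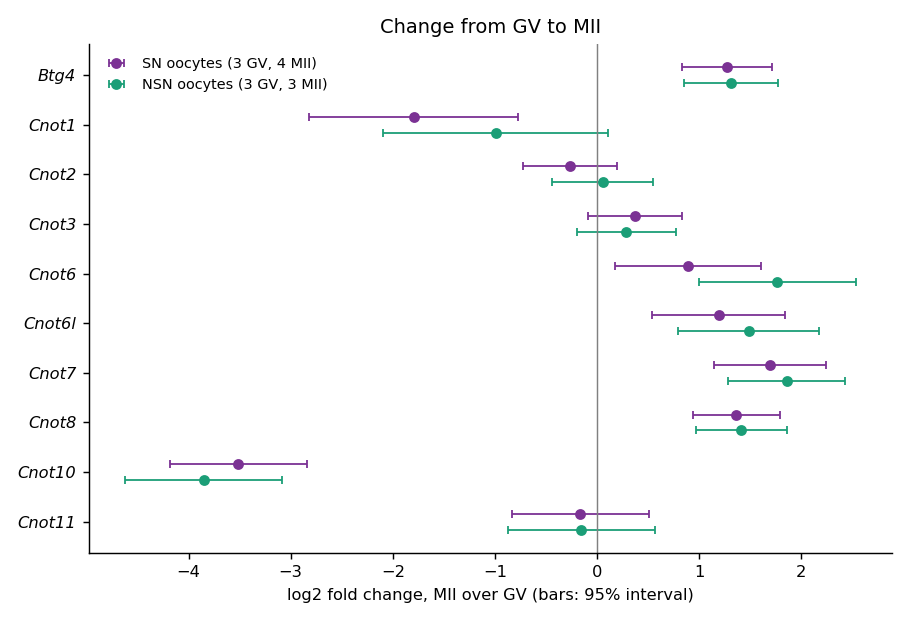
Change of each mRNA from GV to MII as a log2 fold change, in SN oocytes (purple, 3 GV and 4 MII) and in NSN oocytes (green, 3 GV and 3 MII), with 95% intervals as bars. Btg4 and the 4 nucleases lie to the right and Cnot10 to the left of 0 in both types, and the intervals of the 2 types overlap for every gene.

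Per length, the order of the levels changed between the stages. At GV the order of mean FPKM was Btg4 (1347), Cnot7 (264), Cnot3 (149.8), Cnot8 (105), Cnot2 (75.2), Cnot10 (36.7), Cnot1 (27.2), Cnot6l (19.7), Cnot11 (15.97) and Cnot6 (2.61). Neighbours from Cnot10 to Cnot11 overlapped in range and the others did not. At MII the order was Btg4 (2956), Cnot7 (811), Cnot8 (245), Cnot3 (163), Cnot2 (68.8), Cnot6l (43.7), Cnot11 (12.9), Cnot1 (10.2), Cnot6 (5.91) and Cnot10 (3.84). There the neighbours Cnot8 and Cnot3 overlapped in range, as did those from Cnot11 to Cnot10. Cnot3 was above Cnot8 in all 6 GV oocytes, and Cnot8 was above Cnot3 in all 7 MII oocytes. Cnot10 went from the 6th to the 10th place, at the level of the rarest nuclease.

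**Figure D4:**
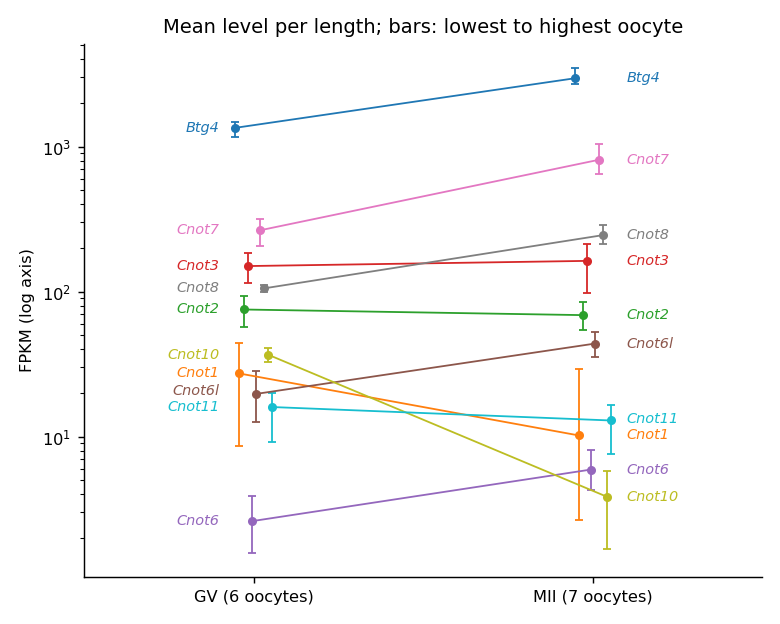
Mean FPKM of each mRNA at GV (6 oocytes) and at MII (7 oocytes) on a log axis, with bars from the lowest to the highest oocyte. Cnot8 passes Cnot3 between the stages, and Cnot10 falls from 36.7 to 3.84 FPKM, below Cnot6.

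Within each type, the stage difference had the same direction for all called genes. In SN oocytes 7 of the 10 genes were called against 56.3% of all genes, 5 higher (25.1% of all genes) and 2 lower (31.2%). In NSN oocytes 6 were called, also against 56.3%, 5 higher (25.5%) and 1 lower (30.8%). The log2 fold change in SN and in NSN oocytes was 1.28 and 1.31 for Btg4, 1.69 and 1.86 for Cnot7, 1.36 and 1.41 for Cnot8, and 1.19 and 1.49 for Cnot6l. For Cnot10 it was -3.51 in SN and -3.85 in NSN oocytes. Cnot6 rose by 0.89 in SN oocytes (adjusted p = 0.0331 in edgeR's test) and by 1.77 in NSN oocytes (adjusted p = 0.000614). The call in SN oocytes was lost without SN GV oocyte 1 (0.87, adjusted p = 0.0908) or 3 (0.66, adjusted p = 0.156) and without SN-MII oocyte 1 (0.80, adjusted p = 0.0773) or 4 (0.87, adjusted p = 0.0563), in edgeR's test. Cnot1 fell by 1.80 in SN oocytes (adjusted p = 0.00478), and its value of -0.99 in NSN oocytes was not called (adjusted p = 0.115). Without NSN GV oocyte 2 that value was -1.47 (adjusted p = 0.00537), and without NSN-MII oocyte 1 it was -1.63 (adjusted p = 0.0295).

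The difference between the types in this stage change was tested by the interaction of type and stage. No member was called (edgeR), beside 0.0176% of all genes, none had an unadjusted p under 0.05 (5.33% of all genes did), and DESeq2 and limma called 0 members as well. The largest interactions were 0.87 ± 0.49 (SE) for Cnot6 and 0.80 ± 0.71 (SE) for Cnot1, both with an adjusted p of 0.9997 in edgeR's test. For Btg4 the interaction was 0.035, with a 95% interval from -0.59 to 0.66 on the log2 scale. The call of Cnot1 in SN but not in NSN oocytes is therefore not a shown difference.

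Between NSN and SN oocytes of the same stage none of the 10 genes was called. At GV 0 of 10839 genes tested were called (edgeR, 0%), 190 had an unadjusted p under 0.05 (1.75%) and none of these was a member. The lowest p of a member at GV was 0.3001 (Cnot6l, 0.784-fold in NSN). At MII 26 of 10028 genes were called (0.259%; 2 to 233 genes with a library left out), no member had an unadjusted p under 0.05 (9.38% of all genes did), and the lowest adjusted p of a member was 0.684 (Cnot6, 1.32-fold in NSN-MII). DESeq2 and limma called 0 members at either stage too, and the CPM of the types overlapped for every member, where 6.04% of all genes at GV and 10.2% at MII did not overlap (5.56% were wholly lower in NSN-MII oocytes). The FPKM of Cnot6 did not overlap at MII, with 6.70 to 8.11 in NSN-MII and 4.26 to 5.52 in SN-MII oocytes.

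The width of the intervals sets what these comparisons could show. For Btg4 the ratio of NSN to SN was between 0.773 and 1.26 at GV and between 0.769 and 1.30 at MII at 95% confidence. For Cnot8 it was between 0.806 and 1.30 at GV and between 0.796 and 1.37 at MII. For Cnot1 the ratio could lie anywhere from 0.346 to 1.99 at GV and from 0.808 to 2.51 at MII. Cnot10 had a ratio between 0.694 and 1.26 at GV and between 0.379 and 1.41 at MII, where its counts were low. A difference of the size seen between the stages for Btg4, Cnot7 or Cnot8 lay outside these genes' intervals.

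**Figure D5:**
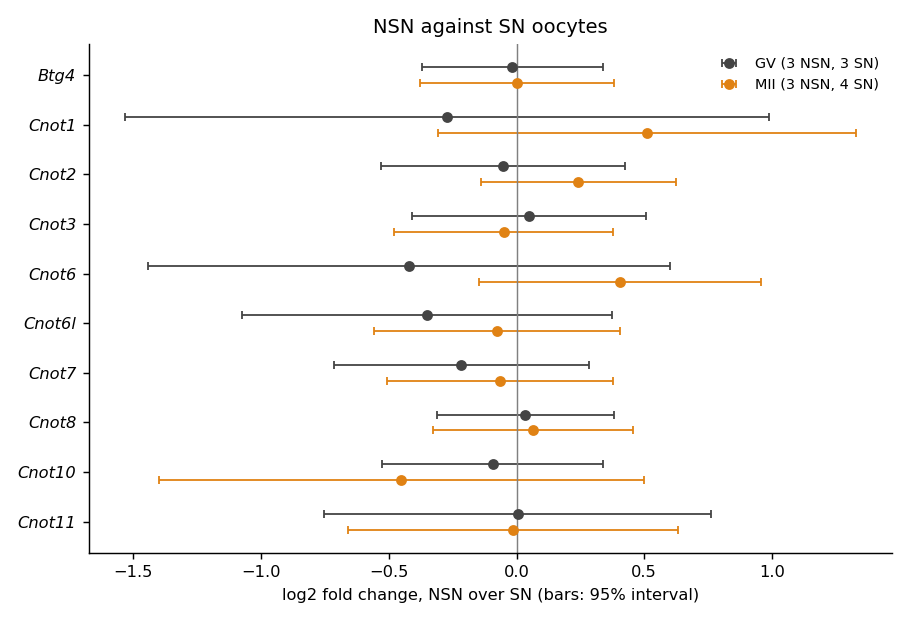
Difference between NSN and SN oocytes as a log2 fold change, at GV (grey, 3 NSN and 3 SN) and at MII (orange, 3 NSN and 4 SN), with 95% intervals as bars. All 20 intervals include 0, and those of Cnot1 are the widest at GV.

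Single oocytes, mostly NSN ones, stood at the ends of the ranges. Among the GV oocytes, NSN GV oocyte 1 had the lowest CPM of 5 genes (Btg4, Cnot6l, Cnot7, Cnot8 and Cnot10) and NSN GV oocyte 2 the lowest of 4 others (Cnot1, Cnot3, Cnot6 and Cnot11), while NSN GV oocyte 3 had the highest of 5. SN GV oocyte 2 had the highest of 3 (Cnot2, Cnot6 and Cnot6l). Among the MII oocytes, NSN-MII oocyte 3 had the highest CPM of Btg4, Cnot2, Cnot6l, Cnot7 and Cnot8 and the lowest of Cnot1 and Cnot3. That library also had the fewest genes with a count (11579) and the lowest TMM factor (0.799), and NSN GV oocyte 1 had the highest TMM factor (1.26). The part of these in the extremes was not tested. With CPM taken on library totals alone NSN GV oocyte 1 was lowest for 5 genes, NSN GV oocyte 3 was highest for 3 and SN GV oocyte 2 for 4, and NSN-MII oocyte 3 was highest for 5 and lowest for 2. In FPKM NSN GV oocyte 1 was lowest for 2 genes (Btg4 and Cnot7), NSN GV oocyte 3 was highest for 4, and NSN-MII oocyte 3 was highest for 3 and lowest for 2. There NSN GV oocyte 2 was lowest for 4 and SN GV oocyte 3 for 3. The share of all genes at which each library was the extreme was not counted. The SD of the log2 level was larger in NSN than in SN oocytes for 8 of the 10 genes at GV and for 8 at MII, where 72.5% and 62.6% of all genes tested had the larger SD in NSN oocytes.

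The genes whose level followed Btg4 most closely over the 13 oocytes were ranked by Pearson's r of log2(FPKM + 1), among the 7705 genes whose mean reached 5 FPKM. The first were Oas1d (0.996), Rab14 (0.995), Rbm18 (0.995), Asf1b (0.995) and AI987944 (0.994). Oas1d was at 655 to 995.5 FPKM in GV and at 1872 to 2559 FPKM in MII oocytes, beside 1162 to 1482 and 2700.5 to 3471 FPKM of Btg4. Of the other members, Cnot8 ranked 13th (0.990), Cnot7 56th (0.983) and Cnot6l 1149th (0.881), while Cnot3, Cnot2 and Cnot11 were at 0.054, -0.22 and -0.48. Over the 13 oocytes Cnot1 (-0.74) and Cnot10 (-0.95) ran against it, and Cnot6 was below the minimum level. The 13 points fall into 2 stages and share their libraries, so these values are a description. Within the 7 MII oocytes r with Btg4 was 0.889 for Cnot7 and 0.821 for Cnot8, and within the 6 GV oocytes it was 0.522 and 0.656. For Cnot10 r was 0.310 within MII and 0.258 within GV oocytes, opposite in sign to its value over all 13. For Cnot6l it was 0.580 and 0.220, and for Cnot1 -0.668 and -0.365, in the same order. For Cnot3 it was -0.709 and -0.310, for Cnot11 -0.400 and -0.712, and for Cnot2 0.193 and 0.387, again within MII and within GV.

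The other genes of the pathway were taken from lists that were chosen with earlier results of these data known. Of 7 other CCR4-NOT and BTG/TOB genes in the count tables, 6 were tested. At MII 3 of these were called higher and 1 was called lower, beside 31.7% and 36.9% of all genes. The largest rise was that of Tob2, a BTG/TOB family protein, from 175 ± 34.0 (SD, n = 6) to 410.5 ± 32.9 CPM (SD, n = 7), or 1.23 on the log2 scale. Cnot9, the core subunit that binds recruiting proteins, fell from 120.3 ± 10.8 to 53.4 ± 9.70 CPM (SD), by 1.16 on the log2 scale. Of 8 other deadenylases 4 were called higher and 2 lower, beside the same shares of all genes, and neither list's number called, 4 of 6 and 6 of 8, is far from the 68.6% of all genes called. Pan3, the adaptor of the PAN2 deadenylase, rose from 40.8 ± 7.99 to 158 ± 26.0 CPM (SD), by 1.97 on the log2 scale. Toe1, a nuclear deadenylase, had 2.68 to 13.4 CPM in GV and 0 to 1.19 CPM in MII oocytes, the largest fall of its list.

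A list of proteins that recruit CCR4-NOT to mRNAs or act with it had 20 genes in the count tables, of which 16 were tested. Zfp36l1, Zfp36l2, Zfp36l3 and Nanos3 did not pass the expression filter, so the numbers below do not cover them. Of these, 10 were called higher and 0 lower at MII, beside 31.7% and 36.9% of all genes. The median log2 fold change of the 16 was 1.13, beside -0.10 over all genes. The list was not limited to sequence-specific RNA-binding proteins, and the 10 included Tnrc6a, Tnrc6b, Tnrc6c and Ddx6. The largest rise was that of Bicc1, an RNA-binding repressor that recruits CCR4-NOT, from 5.25 to 18.2 CPM in GV oocytes to 23.0 to 48.5 CPM in MII oocytes (log2 fold change 1.83). Of 21 tested genes of tail lengthening and tail binding (22 in the count tables), 6 were called higher and 7 lower, beside the same shares. Cpeb4, a CPE-binding protein, rose most, from 14.1 to 61.2 ± 5.76 CPM (SD, n = 7), and Cpsf4, a subunit of the cleavage and polyadenylation factor, fell most, by 2.54 on the log2 scale. Between NSN and SN oocytes edgeR called 0 of 50 list genes at GV and 0 of 48 at MII. At GV 0 of them had an unadjusted p under 0.05, beside 1.75% of all genes, and DESeq2 called 0. At MII 8 had an unadjusted p under 0.05, beside 9.38% of all genes, and DESeq2 called 3 (Tent5c, Pabpc1l and Pabpn1l), beside 217 or 2.51% of the 8662 genes to which it gave an adjusted p.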

How the data were processed

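Single oocytes were compared in 4 groups taken from the sample labels. The authors trimmed reads with Trim Galore 0.4.4, aligned them to mm10 with Bowtie2 2.3.5 and quantified genes with RSEM 1.2.28, and DESeq2 1.20.0 is also named in their processing notes. Gene counts are expected counts from RSEM, which the authors deposited in 1 table per stage. Up to 16.6% of a library's values were not whole, and they were rounded. A deposited FPKM table, scaled by length and depth by the authors, held all libraries. The cDNA was amplified by PCR, and the sources name no molecular identifiers and no strand-specific kit, so reads on overlapping genes cannot be told apart.

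Counts of both tables were joined on the symbol. Genes were filtered with filterByExpr, scaled by TMM and tested with edgeR 4.0.16 (quasi-likelihood, R 4.3.3) with Benjamini-Hochberg adjustment over all genes. Types were compared within a stage (common biological coefficient of variation 0.352 at GV and 0.344 at MII), and stages and the interaction in 1 fit of all 13 libraries (0.364). SE is the size of the log2 fold change over the square root of F. Alternatives were DESeq2 1.42.0, its size factors, library totals, no filter, the replicate number as a block, limma 3.58.1 on log2(FPKM + 1) and log2(FPKM + 0.1), other sets of libraries, and each library left out. No 2 libraries were copies (lowest chi-square per degree of freedom 11.1). The fits were tested on simulated data.

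All members were named, and from each list the called gene with the largest rise and fall between stages, plus the 5 genes nearest to Btg4. The members and lists were chosen with earlier results of these data known. Positions and transcript ends came from GENCODE M21, which held all 10 symbols. Protein sequences, reads and imaging were not analysed here.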

Additional observations from a re-analysis of the deposited data

How the results depend on the processing

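The 7 calls between stages held with each library left out and under DESeq2, its size factors, library totals, no filter, the block and limma. Other calls of members that changed: Cnot2 and Cnot3 between stages and Cnot1 in NSN oocytes, as given in the report. In SN oocytes, library totals alone called Cnot2 (-0.56), a fit of SN libraries alone called Cnot3 (0.38), and Cnot6 was not called with library totals (0.61), no filter (0.89), the block (0.86) or limma on log2(FPKM + 0.1) (0.89). No member was called between NSN and SN oocytes, or in the interaction, under any setting. Replicate numbers were not taken to pair the oocytes: deviations of same-numbered SN and NSN oocytes correlated at -0.458 to -0.206 at GV and at -0.119 to 0.0967 at MII, and 0 of 6 and 2 of 6 libraries correlated best with their own number. Between stages these correlations were -0.0373 to 0.0484 in SN oocytes (2 of 6 best with their own number) and 0.0287 to 0.202 in NSN oocytes, where 5 of 6 correlated best with their own number, a hint from the data alone, since not every pair exceeded 0.1. With the replicate block 2 genes were called between MII types, and of the members' calls that of Cnot6 in SN oocytes was lost.

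The number of genes called between MII types, 26, was 217 with DESeq2, 16 with library totals, 89 with no filter, 9 and 5 with limma on log2(FPKM + 1) and log2(FPKM + 0.1), and 69 in a fit of all libraries. It was 7, 4 and 9 without SN-MII oocyte 2, 3 or 4, 2 and 5 without NSN-MII oocyte 1 or 2, and 233 without NSN-MII oocyte 3. The 2 genes of the interaction became 39 with DESeq2, 6 with no filter and 0 to 12 with a library left out (12 without NSN-MII oocyte 3). The causes were not tested.

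Values of uncalled members that changed sign were small, in log2. For Cnot11 at GV they were -0.0034 with no filter, -0.090 with the block, -0.083 and -0.093 with limma and -0.025 in a fit of all libraries. At MII they were 0.055 with library totals, 0.17 with the block and 0.076 and 0.083 with limma. Cnot3 at MII was 0.017 with library totals and Btg4 -0.0022 with no filter. In the interaction Cnot6l was -0.056 and -0.055 with limma, and the stage difference of Cnot2 in NSN oocytes was -0.24 with library totals. With a library left out, the GV differences spanned -0.12 to 0.11 (Btg4), -0.80 to 0.20 (Cnot1), -0.23 to 0.088 (Cnot2), -0.14 to 0.21 (Cnot3), -0.0082 to 0.097 (Cnot8) and -0.21 to 0.31 (Cnot11). The MII differences spanned -0.23 to 0.12 (Btg4), -0.089 to 0.89 (Cnot1), -0.23 to 0.15 (Cnot3), -0.41 to 0.065 (Cnot6l), -0.36 to 0.091 (Cnot7), -0.14 to 0.18 (Cnot8) and -0.21 to 0.16 (Cnot11). The interactions spanned -0.21 to 0.16 (Btg4), -0.25 to 0.15 (Cnot3), -0.063 to 0.71 (Cnot6l), -0.15 to 0.42 (Cnot7), -0.18 to 0.15 (Cnot8) and -0.29 to 0.22 (Cnot11). Stage differences spanned -0.31 to 0.037 (Cnot11 in SN oocytes), -0.45 to 0.056 (Cnot11 in NSN oocytes) and -0.14 to 0.20 (Cnot2 in NSN oocytes). In CPM instead of FPKM, the share of Cnot7 in its pair was 65.9% in SN GV, 61.3% in NSN GV, 70.9% in SN-MII and 68.7% in NSN-MII oocytes.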

Other observations

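Among the list genes, those with the lowest p between NSN-MII and SN-MII oocytes were 2 poly(A)-binding proteins of the oocyte and a poly(A) polymerase, chosen here after their values were seen. Pabpn1l, a poly(A)-binding protein known to bring BTG4 to mRNAs, was at 46.3, 24.1 and 65.6 CPM in the NSN-MII oocytes and at 111, 91.8, 128 and 302 CPM in the SN-MII oocytes. The types did not overlap, in a comparison where 5.56% of all genes were wholly lower in NSN-MII oocytes. The log2 difference was -1.81 ± 0.43 (SE), with an adjusted p of 0.125 in edgeR's test and 0.00114 in DESeq2, and it lay between -2.15 and -1.30 with any single library left out. At GV Pabpn1l was at 139 to 229 CPM in NSN and at 149 to 202 CPM in SN oocytes.

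Pabpc1l, the cytoplasmic poly(A)-binding protein of the oocyte, was at 68.4, 50.4 and 18.7 CPM in NSN-MII oocytes and at 121, 119, 137 and 81.0 CPM in SN-MII oocytes. Its log2 difference was -1.31 (adjusted p = 0.205 in edgeR's test and 0.0139 in DESeq2). Tent5c, a poly(A) polymerase, was at 488, 357 and 241 CPM in NSN-MII and at 731, 633, 637 and 590.5 CPM in SN-MII oocytes, a log2 difference of -0.84 (adjusted p = 0.18 in edgeR's test and 0.0199 in DESeq2). In both genes NSN-MII oocyte 3 was the lowest. Without it the differences were -0.94 (adjusted p = 0.0572) and -0.61 (adjusted p = 0.0629), both in edgeR's test. In that fit Pabpn1l was 1 of 233 genes called, at -2.15 (adjusted p = 0.0342 in edgeR's test). For Pabpn1l, however, NSN-MII oocyte 3 was the highest of its group, at 65.6 CPM. Without any other single library Pabpn1l was not called (adjusted p between 0.166 and 0.370 in edgeR's test).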
